A study of Homo sapiens with 2 samples.

Results

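The AIM2 locus on the long arm of chromosome 1 carried 2 called peaks in HaCaT cells given 20 Gy of X-rays and 0 in unirradiated HaCaT cells. HaCaT is an immortalised human keratinocyte line. Chromatin was fixed with formaldehyde, sonicated and immunoprecipitated with an antibody against the AIM2 protein, and the recovered DNA was sequenced and called for peaks by the authors. The irradiated cells received 20 Gy at 1.15 Gy per minute, and their title also gives 4 h without saying from which event this time counts. The unirradiated cells (0 Gy) shared line, antibody and library protocol. There was 1 library per group and no control library, so no difference between the groups could be tested against replicate spread. Without an input sample, enrichment unrelated to the antibody cannot be told apart from binding.

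The members were the peaks whose summit, the position of highest coverage, lay on chromosome 1 within 1 kb of the AIM2 gene. These were 2 of the 1525 peaks of the 20 Gy library and 0 of the 1936 peaks of the 0 Gy library, or 2 of 3461 in all. The comparison asks which DNA the antibody brings down from irradiated and from unirradiated cells. The 20 Gy library was the shallower, with 6423989 fragments kept by the peak caller, against 8786091 in the 0 Gy library. Both lists were called separately, per library.

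AIM2 encodes a cytosolic sensor of double-stranded DNA. Its HIN domain binds DNA irrespective of sequence, and its pyrin domain recruits the adaptor ASC, encoded by PYCARD, to activate caspase-1 in an inflammasome that matures interleukin-1β and interleukin-18. In the skin the protein is known from inflamed keratinocytes. The gene lies in a cluster of interferon-inducible relatives on chromosome 1, which includes IFI16, a mainly nuclear DNA sensor, MNDA, a nuclear antigen of myeloid cells, and PYHIN1. The protein AIM2 was the target of the antibody, whereas the peaks described here are DNA of the gene AIM2. They carry no measure of its expression.

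The gene table of GRCh38.p14 gives AIM2 an extent of 159055051 to 159147132 on chromosome 1, or 92082 bp. The gene is on the minus strand, and the RefSeq promoter table places 1 start site at 159076766. The extent runs on for 70366 bp upstream of that start site and for 21715 bp downstream of it. The RefSeq window around the start site is printed because it fixes the point from which the peaks were measured and because no peak lay in it. It is chr1:159076717-159077016 on the minus strand of GRCh38.p14, 5′ to 3′, with 250 bases before and 50 from the start site. The isolated capital marks the annotated start base. The other capitals mark the single match, on the opposite strand of the window, to GAAANNGAAA, the core of the interferon-stimulated response element.
AIM2 start site window: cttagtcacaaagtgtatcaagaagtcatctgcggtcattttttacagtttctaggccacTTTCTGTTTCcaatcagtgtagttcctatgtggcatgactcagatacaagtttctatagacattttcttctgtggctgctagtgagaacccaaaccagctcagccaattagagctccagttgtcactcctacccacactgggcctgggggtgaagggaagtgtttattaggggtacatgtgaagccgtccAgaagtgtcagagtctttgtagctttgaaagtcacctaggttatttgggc

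This motif, read on both strands, was found in 3.57% of the 35116 RefSeq windows of the same length. Of the 5 windows of AIM2, IFI16, MNDA and PYHIN1, 2 held it, that of AIM2 and that of MNDA. The matches are descriptions of the sequence. The sequence under the peaks themselves was not analysed here.

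At 20 Gy both peaks lay downstream of the start site, inside the gene. The peak farther from the start site spanned 159065946 to 159066264, a length of 319 bp, with its summit 10667 bp downstream of the start. Its pileup, the number of fragments covering the summit, was 27 (exact Poisson 95% interval 17.8 to 39.3). The peak nearer the start site spanned 159073261 to 159073499, a length of 239 bp, with its summit 3359 bp downstream of the start and a pileup of 14 (7.65 to 23.5). The intervals of the 2 pileups overlap, and they cover counting error only. The summits were 7308 bp apart, with 6996 bp between the peaks in which nothing was called. The start site window began 3218 bp beyond the end of the nearer peak. Exon and intron limits of AIM2 were not used here, so whether the peaks end at exon borders is not given.

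**Figure D1:**
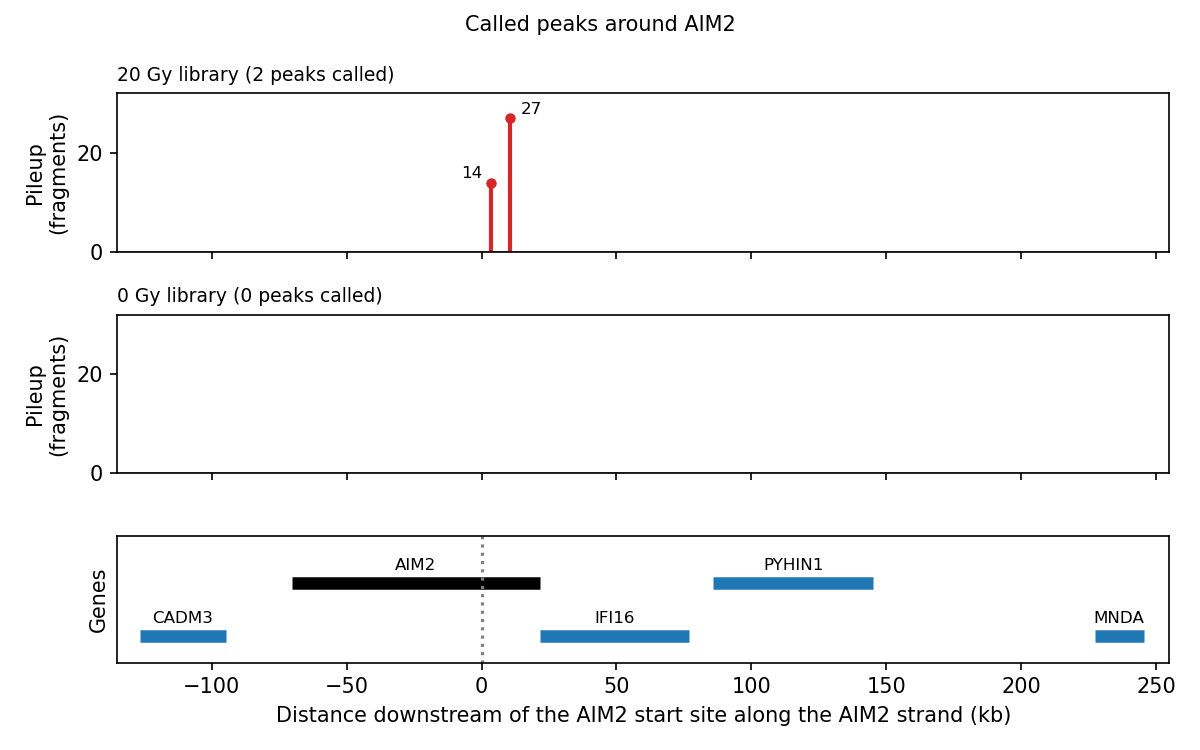
Pileup in fragments at the summit of each called peak in the 20 Gy library (top) and the 0 Gy library (middle), with gene extents below, against distance in kb downstream of the AIM2 start site (dotted line). The 20 Gy library has peaks of 14 and 27 fragments inside AIM2, and the 0 Gy library has none in the stretch from CADM3 to MNDA.

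The authors' fold enrichment was 14.4 for the farther peak and 9.01 for the nearer one, and the −log10 q-values were 25.7 and 10.6. Per 1000000 kept fragments the pileups were 4.20 (2.77 to 6.12) and 2.18 (1.19 to 3.66), where the median nuclear peak of the 20 Gy list had 2.02. The farther peak thus stood above the median of its list and the nearer one close to it. Of the 1518 nuclear peaks at 20 Gy, 20.8% had a pileup at or above that of the farther peak (exact interval 18.7 to 22.9) and 48.0% at or above that of the nearer peak (45.4 to 50.5). By fold enrichment these shares were 8.76% and 24.7%.

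The fragments around each summit could be counted from the deposited values. In both lists the deposited p-values of all peaks were returned, within 0.01 on the −log10 scale, by a Poisson tail above the pileup with a background of (pileup + 1) / fold enrichment − 1. The caller takes that background over 10000 bp. The 10 kb around the summit of the farther AIM2 peak held 47 fragments, and those around the nearer one held 33. The genome-wide level of the same library was 20.8 fragments per 10 kb. Less those that covered the summit, 20 fragments were left around the farther peak and 19 around the nearer one. These counts were close to the genome-wide level, which was taken as the lowest background of the list. They have counting error of their own and may include fragments of the peaks that miss the summit. The windows shared 2692 bp, but neither reached the other peak, and the window of the nearer peak also covered the AIM2 start site.

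At 0 Gy no peak was called at AIM2, and the list holds no value for a region without a peak. At the depth of the 0 Gy library, which kept 1.37 times as many fragments, peaks of equal height would have pileups of 36.9 (24.3 to 53.7) for the farther and 19.1 (10.5 to 32.1) for the nearer. The background was scaled by the ratio of the lowest backgrounds of both libraries. The call limit was taken as the lowest −log10 p-value of the 0 Gy list, 4.91. This limit would be reached at pileups of 8 and 7, and with the lowest background of that library at 6. The lowest pileup called anywhere at 0 Gy was 6. Both computed heights, and the lower bounds of their intervals, were above these limits. Both AIM2 peaks were longer than 177 bp, the shortest peak that could be called at 0 Gy. A stretch shorter than 177 bp could hold more fragments at 0 Gy without being called, so the absence of a peak sets a limit on coverage and is no count of 0.

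**Figure D2:**
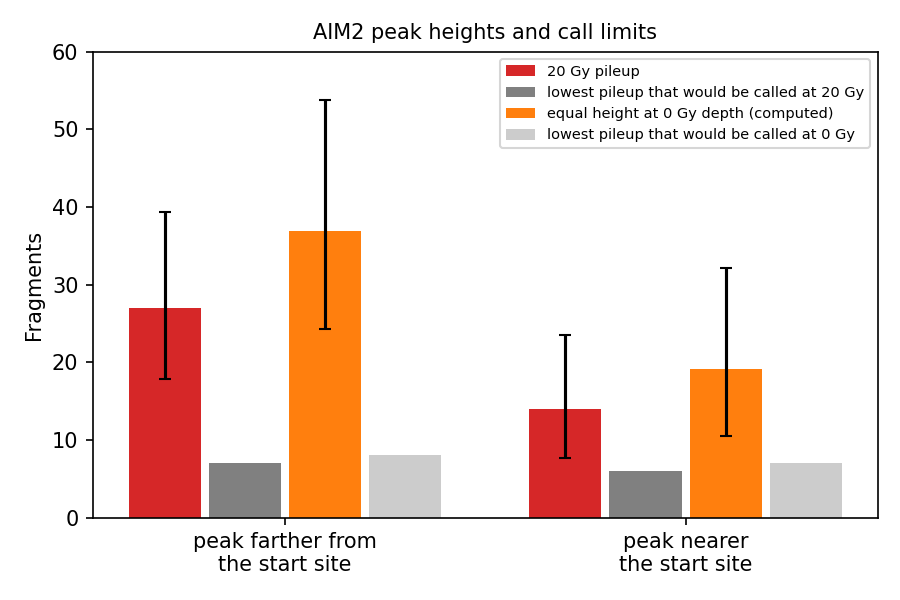
Fragments at the summit of the AIM2 peaks in the 20 Gy library (red), the lowest pileup the 20 Gy call would report there (dark grey), the equal height computed for the depth of the 0 Gy library (orange) and the lowest pileup the 0 Gy call would report (light grey). Error bars are exact Poisson 95% intervals. The computed heights of 36.9 and 19.1 stand above limits of 8 and 7.

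The relatives of AIM2 had no peak in either library. IFI16 ends 10948 bp from the farther AIM2 summit, and its extent overlaps that of AIM2 by 101 bp. It had 0 peaks at 20 Gy and 0 at 0 Gy. PYHIN1 lies 75229 bp from that summit and MNDA 216597 bp, and each also had 0 peaks in both libraries. PYDC5, which encodes a pyrin-domain-only protein and overlaps IFI16 in the gene table, had none either, nor had CADM3, a cell adhesion gene on the other side of AIM2. Within 1 Mb of AIM2 the gene table holds 96 other genes, of which 45 are protein-coding, and 0 of them had a peak in either library. Over all protein-coding genes, 0.24% had a 20 Gy peak within 1 kb and 0.22% a 0 Gy peak. A count of 0 among the relatives, or among these 45 genes, is therefore the usual result.

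The nearest other peaks on chromosome 1 were far away. In the 20 Gy list the next peak on the centromere side was 15.0 Mb from AIM2 and the next on the telomere side 64.9 Mb. Peaks of the 0 Gy list lay at the same places, and each pair overlapped. The stretch between these nearest peaks, from position 144103910 to 224013445, spans 79.9 Mb and holds 779 protein-coding genes other than AIM2. In it the 20 Gy library had 2 peaks, both in AIM2, and the 0 Gy library had 0. The absence of other peaks there follows from how its ends were chosen and is no separate result. The share of all protein-coding genes with a peak was 0.24% at 20 Gy and 0.22% at 0 Gy. Chromosome 1 as a whole held 227 peaks at 20 Gy and 256 at 0 Gy.

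**Figure D3:**
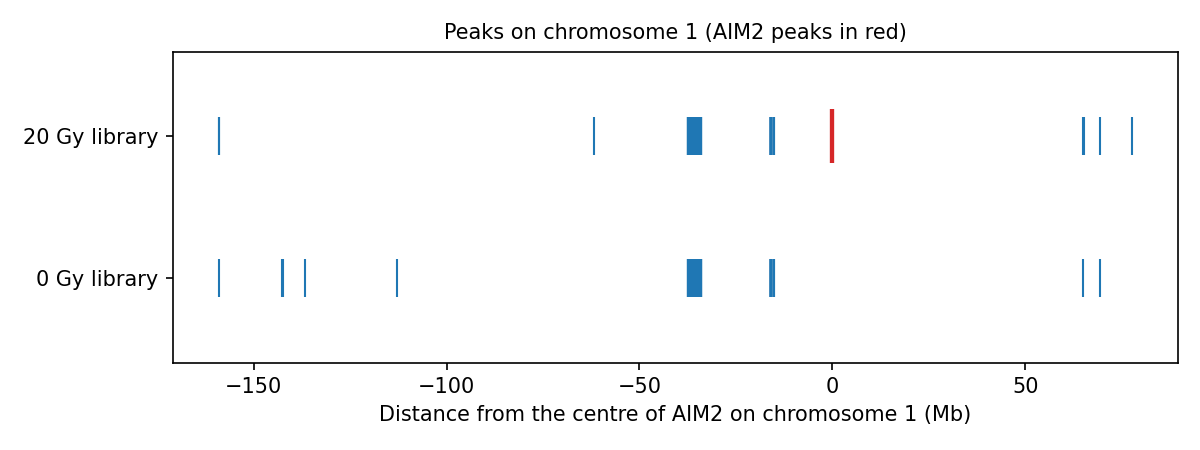
Positions of all peaks on chromosome 1 as distance in Mb from the centre of AIM2, for the 20 Gy library (top) and the 0 Gy library (bottom). The AIM2 peaks (red) are at 0 in the 20 Gy row, with no other peak between 15.0 Mb on the left and 64.9 Mb on the right in either row.

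Few genes carried peaks. Of 20033 protein-coding genes, 0.24% had a 20 Gy peak within 1 kb and 0.22% a 0 Gy peak. A 20 Gy peak with no 0 Gy peak was found in 33 genes, or 0.165%, and the reverse in 29 genes, or 0.145%. AIM2 was among the 33. Genes with a peak in 1 library only were thus of similar number in both directions. Among the 5120 genes between 0.5 and 2 times as long as AIM2, the shares were 0.234% and 0.215%.

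Several peaks in 1 gene were rarer. At 20 Gy, 7 genes had 2 or more peaks (0.0349%), and AIM2 was the only 1 of the 7 with no peak at 0 Gy (0.00499% of genes). At 0 Gy 3 genes had 2 or more peaks (0.015%), and 0 of the 3 lacked a peak at 20 Gy (0%). DUX4, a homeobox gene of a macrosatellite repeat, had 3 peaks at 20 Gy and 2 at 0 Gy. MYC, a transcription factor gene of cell growth, had 2 in each library, as had LMF1, a lipase maturation gene. DOCK1, an activator of the GTPase Rac, the protein kinase C gene PRKCA and RPSA2 each had 2 at 20 Gy and 1 at 0 Gy. The highest pileups of these genes were 58 and 68 for DUX4, 180 and 110 for MYC and 27 and 53 for LMF1, given for 20 Gy and then for 0 Gy. For DOCK1 they were 29 and 22, for PRKCA 20 and 21 and for RPSA2 11 and 10. These pileups are not scaled for depth. The 0 Gy library kept 1.37 times as many fragments, so the values of each pair are not directly comparable. DUX4 belongs to a repeat family whose reads can be misplaced between copies.

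Among the 55 peaks in protein-coding genes at 20 Gy, the farther AIM2 peak ranked 8 by pileup and 2 by fold enrichment, and the nearer one 16 and 7. The highest fold enrichment, 17.0, belonged to a peak assigned to both RANBP2 and SH3RF3 that was shared with the 0 Gy list. ART1, an ADP-ribosyltransferase gene, came next after the farther AIM2 peak with 13.3, and was also shared. The 8 highest fold enrichments came from AIM2, with 2 peaks, and from 6 peaks that overlapped a 0 Gy peak.

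**Figure D4:**
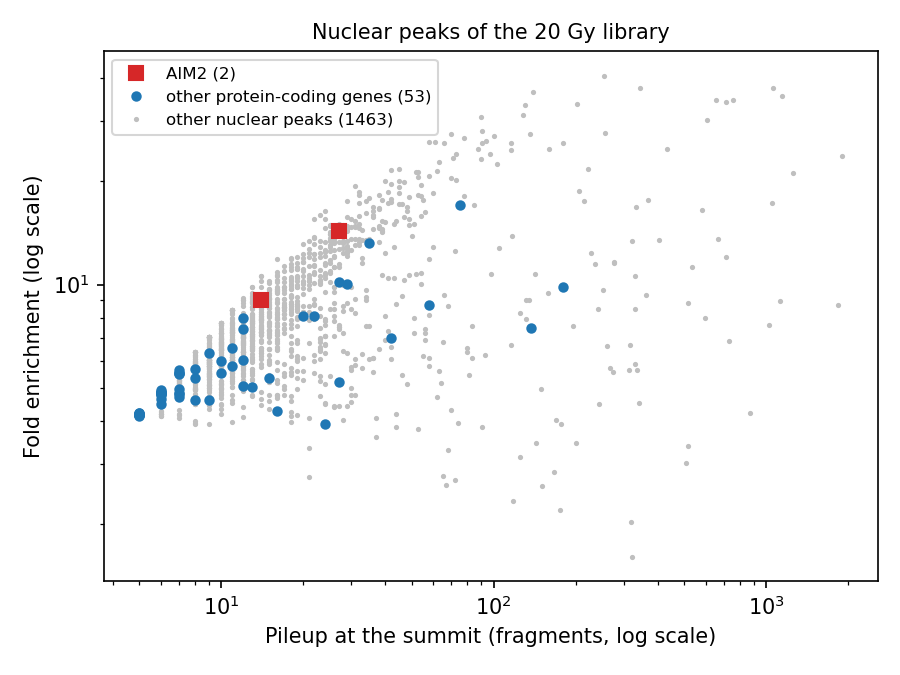
Fold enrichment against pileup in fragments for the nuclear peaks of the 20 Gy library, both on log scales, with the AIM2 peaks as red squares, other peaks in protein-coding genes in blue and the rest in grey. The AIM2 peaks, at 27 and 14 fragments, have fold enrichments of 14.4 and 9.01.

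Of the 55 peaks, 38 overlapped no 0 Gy peak. This holds for the peak and not for its gene, as FANK1, DUX4, PRKCA and RPSA2 also had a 0 Gy peak at another position. Of the 38 peaks, 2 were those of AIM2. The other 36 had pileups of 5 to 27 with a median of 7, fold enrichments of 4.13 to 7.999 with a median of 4.84, and −log10 q-values of 1.40 to 8.94 with a median of 2.43. Both AIM2 peaks were above all 36 in fold enrichment and in −log10 q-value. In pileup, 2 of the 36 were at or above the nearer AIM2 peak: a DUX4 peak with 27, and TAF11L7 with 16. The DUX4 peak was 171 bp long, under the minimum of the 0 Gy call, and its 10 kb window held 218 fragments. The window of the TAF11L7 peak held 148 fragments, and its fold enrichment was 4.27. Next below the nearer AIM2 peak came FAM90A23, a gene of a multicopy family, with 13, and then LOC124905564 and GAPDH, a glycolytic enzyme gene, with 12 each. LOC124905564 is assigned, by the same rule as the other genes, to a peak near the start of chromosome 1, at 10032 to 10226. Its extent was used only for that assignment.

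**Figure D5:**
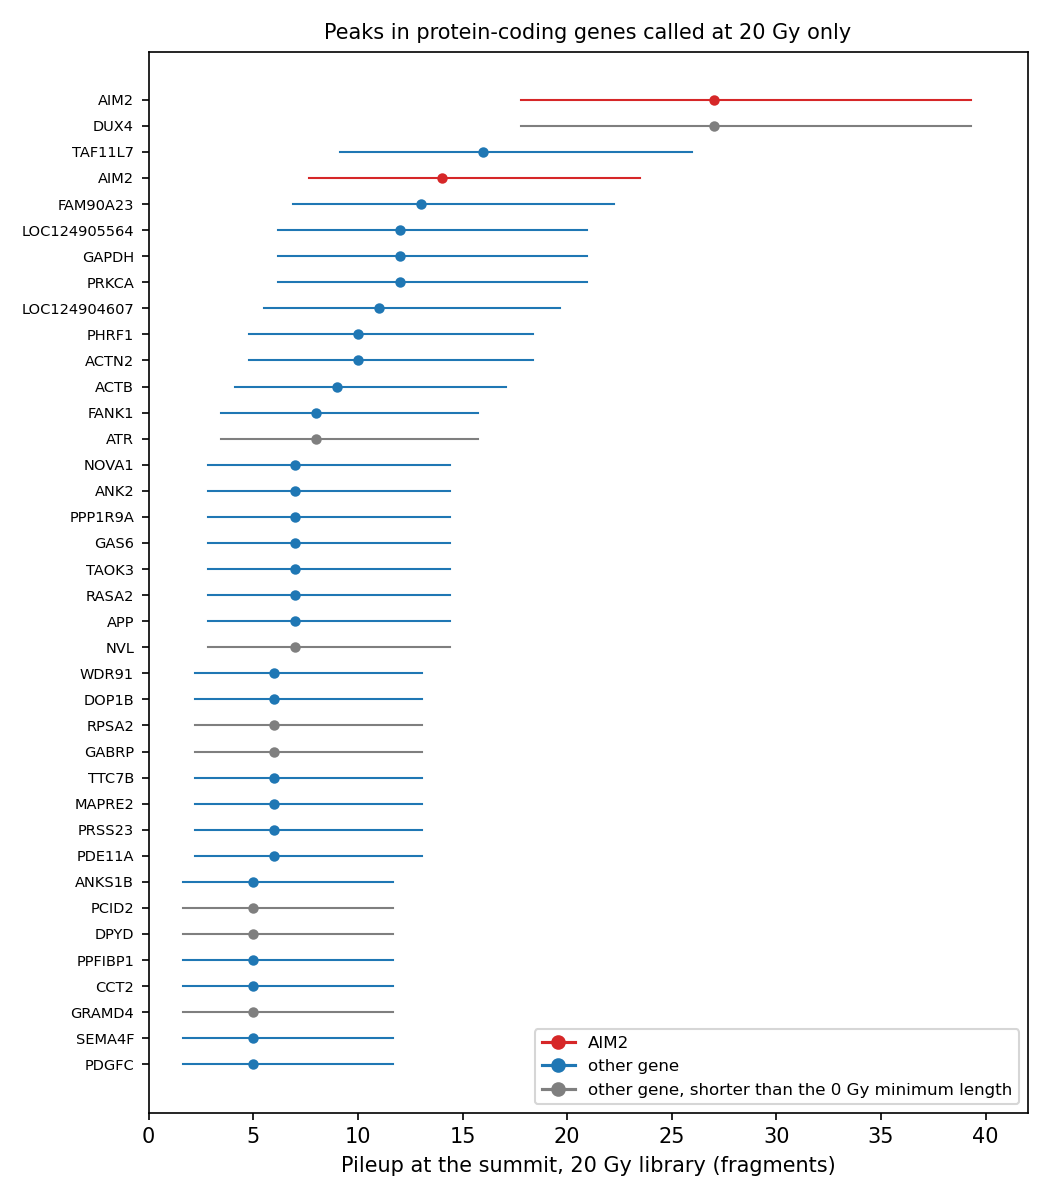
Pileup in fragments, with exact Poisson 95% intervals, of the 38 peaks in protein-coding genes at 20 Gy that overlapped no 0 Gy peak. AIM2 is in red at 27 and 14, and grey marks other peaks under 177 bp, the shortest that could be called at 0 Gy.

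The height computed for the 0 Gy depth was 4.62 times the 0 Gy call limit for the farther AIM2 peak and 2.74 times for the nearer one. For the other 36 peaks it was 1.14 to 2.34 times, with a median of 1.37, and 2 of the 36, LOC124905564 and GAPDH, reached 2. The reverse calculation was made for the 27 peaks in protein-coding genes at 0 Gy that overlapped no 20 Gy peak. It gave 0.731 to 3.03 times the 20 Gy limit, with a median of 1.02. Pileups were multiplied by 1.37 in the first calculation and by 0.731 in the reverse one, for depth. Values of the 2 directions are therefore not on the same scale. The highest of the 27 was ANKRD30BL, named after its value was seen. Its peak on chromosome 2, 132255376 to 132255608, had a pileup of 29 at 0 Gy, 14.5-fold over background at a −log10 q-value of 27.3, with no overlapping peak at 20 Gy. A peak of 1 library only with a fold enrichment like that of the farther AIM2 peak was therefore present in the unirradiated library too.

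AIM2 was the member of the inflammasome and DNA sensing list with a peak. All 53 genes of the list were found in the gene table, and 1 had a peak at 20 Gy (1.89%, where all protein-coding genes gave 0.24%) and 0 at 0 Gy. The list includes AIM2 by choice, and the 1 gene with a peak is AIM2 itself. The other 52 had 0 peaks in both libraries. Where 0.24% of all protein-coding genes had a 20 Gy peak and 0.22% a 0 Gy peak, 0 among 52 is the usual result. Among the 52, named as examples for their roles, are PYCARD, which encodes ASC, CASP1, GSDMD, which forms the pyroptotic pore, IL1B and IL18. The same holds for the sensors NLRP1, NLRP3, NLRC4, MEFV and ZBP1, and for CGAS and STING1 of the cyclic GMP-AMP pathway. The exonuclease gene TREX1 and the DNA end-binding and break repair genes XRCC5, XRCC6, PRKDC, MRE11 and RAD50 had 0 as well.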

How the data were processed

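The submitters' processing notes list MACS2 2.1.2, BWA 0.7.15-r1140, Trimmomatic 0.36, deepTools 3.2.1, bcl2fastq 2.20.0.422 and the build GRCh38.p13. MACS2 ran on the libraries separately, per the file headers, on fragment pairs with a q-value limit of 0.05, no control file, at most 1 fragment per position and a minimum length equal to the fragment size (170 bp at 20 Gy, 177 bp at 0 Gy). Duplicate removal took 17.0% of 7740043 fragments at 20 Gy and 16.3% of 10497630 at 0 Gy. The deposited signal is the pileup at the summit, unscaled between libraries as far as the headers show. The authors give p-values and q-values as −log10 values against the background of the same library. The authors' fold enrichment is a ratio to that background, with 1 added to both terms, as the values show.

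Computed here were gene assignment (summit within 1 kb of the extent in a RefSeq table of GRCh38.p14), overlap of at least 1 bp, pileup per 1000000 kept fragments, and 95% intervals, exact Poisson for pileups and Clopper-Pearson for shares of peaks. Those of pileups cover counting error only, and fragments copied by PCR are not separate molecules. Those of shares treat the peaks of a list as independent draws and leave out the counting error of the AIM2 pileups. The background was rebuilt from pileup and fold enrichment, and the genome-wide level was taken as the lowest background of a list. With 1 library per group no test was made. Genes named are AIM2, its neighbours, listed genes with a peak, genes with several 20 Gy peaks, and the 5 genes next to the AIM2 peaks in pileup among 20 Gy-only peaks. Listed genes with 0 peaks are named outside that rule, as examples chosen for their known roles. FANK1 is named because it had peaks in both libraries that did not overlap. Members and lists were chosen with earlier results of these data known, and ANKRD30BL and the genes of highest fold enrichment after their values were seen. Alternatives were stricter q-value limits, other gene windows, midpoints, equal minimum lengths, other rankings and scaling. Gene assignment and overlap were tested on simulated data. Sequence came only from RefSeq windows around start sites of GRCh38.p14. Exon annotation and the sequence under the peaks were not used here. Python 3.11.15, numpy 2.4.6, pandas 2.3.3 and scipy 1.17.1 were used.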

Additional observations from a re-analysis of the deposited data

How the results depend on the processing

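The number of AIM2 peaks was 2 at 20 Gy and 0 at 0 Gy at −log10 q-value limits of 3 and 5, with the summit inside the gene or within 10 kb, by midpoint and with equal minimum lengths. IFI16, MNDA and PYHIN1 kept 0 peaks, and the sensing list 1 and 0 genes, under the same settings. For AIM2 these counts followed from values given above. Both peaks have −log10 q-values above 5, are longer than 177 bp and have their summits inside the gene. The next peak is 15.0 Mb away, and stricter limits cannot raise a count of 0. The settings therefore do not test the AIM2 counts, which are among the recomputed values that stayed. Of 65 recomputed values 47 stayed and 18 moved, where a count or rank stayed within 1.5 times its main value and a share or scaled pileup within its 95% interval. Protein-coding genes with a peak (48 at 20 Gy, 44 at 0 Gy) numbered 26 and 29 at a limit of 3, 14 and 16 at a limit of 5, and 74 and 81 within 10 kb, as fewer peaks or wider windows make them. Measured by fold enrichment in place of scaled pileup, another quantity, the farther and nearer AIM2 peaks had 14.4 and 9.01. Their ranks of 302 and 672 by pileup among nuclear peaks were 133 and 374 by fold enrichment, and 8 and 16 among peaks in protein-coding genes. The shares of peaks at or above them were 14.8% and 35.3% by −log10 q-value, 8.76% and 24.7% by fold enrichment, and 18.2% and 29.1% in protein-coding genes. The ranks of 8 and 16 are among 55 peaks and those of 302 and 672 among 1518, so they are not on the same scale. The cause of the other shifts was not tested. Alternatives that need exon limits were not run. No paired analysis was possible because there is only 1 library per group.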
